A study of Mus musculus with 48 samples.

Results

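The step from 24 h to 48 h after C2C12 cells were moved to differentiation medium was examined on 6 of the 48 arrays of a mouse myogenesis time course, the 3 labelled 48 h against the 3 labelled 24 h. C2C12 is an established line of mouse myoblasts that stop dividing, fuse and form myotubes when serum is lowered. The full series covers 14 times, from 24 h before the change of medium to 144 h after it, with 3 arrays each, and 2 further groups of 3 arrays pre-treated with 50 µM cycloheximide, a blocker of protein synthesis. Cultures grew in DMEM with 20% fetal bovine serum, and both groups compared here were then kept in DMEM with 2% horse serum and received no cycloheximide. RNA was hybridised to Affymetrix MOE430 version 2 arrays, and the 3 replicates of a time came from successive passages of this 1 line, so that p-values measure the spread between passages of C2C12 and not between animals. Values are log2 expression after RMA, a method that corrects background, normalises arrays to each other and summarises the probes of a probe set. A difference of 1 is therefore 2-fold, and a gene is represented by 1 probe set.

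By 24 h in low serum C2C12 cultures hold cells that have left the cell cycle and switched on Myog, the transcription factor of terminal differentiation, and over the following day they fuse into multinucleated tubes and assemble sarcomeres. A sarcomere is built of myosin thick filaments and actin thin filaments anchored at the Z-disc, and it contracts when calcium leaves the sarcoplasmic reticulum. Not every cell fuses: some remain as single mononucleated cells, often called reserve cells. The cultures carried muscle RNA at both times, with Myog between 12.38 and 12.95, embryonic myosin heavy chain Myh3 between 10.95 and 11.85 and skeletal actin Acta1 between 13.30 and 13.81 on the 6 arrays. Mean levels of the leukocyte list were between 3.95 and 4.19 and those of the endothelial list between 3.81 and 3.94 on these arrays. Of their 10 and 8 measured members 0 were called in either direction, where 3.89% of all genes were. However, the blocked fit called the leukocyte marker Cd14 fallen, at -0.61 (adjusted p = 0.00796).

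Between 24 h and 48 h the sarcomere genes Myl2 and Tcap, the calcium store gene Casq1 and the muscle caveolin gene Cav3 rose. So did 9 of 29 energy supply genes and 8 of 24 sterol and fatty acid synthesis genes. Id3, the chemokine gene Cxcl12, several matrix genes and the growth factor receptor genes Igf1r and Pdgfra fell. Of 18194 genes, 708 (3.89%) were called at an adjusted p under 0.05 by limma with Benjamini-Hochberg adjustment, and the median difference over all genes was -0.000398. Higher at 48 h were 342 genes (1.88%), and 366 (2.01%) were lower. These shares are the background for the counts of called list members given here. A change of at least 2-fold was reached by 89 of the risen genes (0.489%) and 88 of the fallen genes (0.484%). All 3 arrays of 48 h lay above all 3 of 24 h for 1702 genes (9.35%), and below them for 1533 genes (8.43%). The fit took its spread from all 16 groups of the series, so that a gene that varied between passages at other times has a wide standard error here too. Fitting the 6 arrays alone gave 428 calls, leaving out 1 array at a time gave between 282 calls (without 48 h replicate 1) and 887 (without 48 h replicate 3), and fitting the passage number as a block gave 1475 calls, which held all 708. Leaving out replicates 2 and 3 of 24 h gave 402 and 417 calls. In bulk RNA, fewer cells of a kind and less RNA per cell cannot be told apart.

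**Figure D1:**
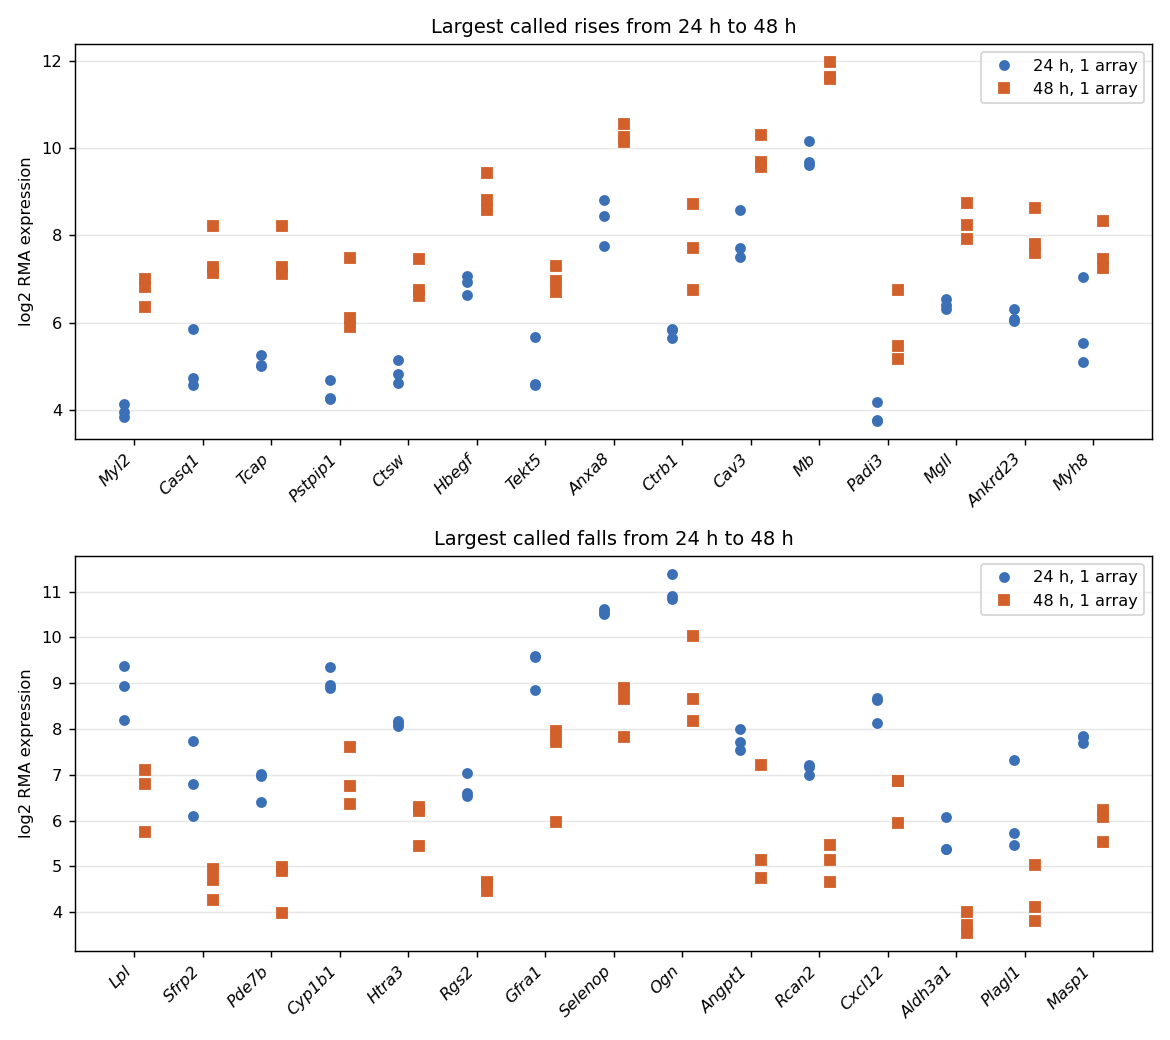
Log2 RMA level on each of the 3 arrays of 24 h (blue circles) and of 48 h (orange squares) for the 15 called genes that rose most (upper panel) and the 15 that fell most (lower panel) among genes whose groups do not overlap. Myl2 moves from between 3.83 and 4.14 to between 6.37 and 6.99, and Htra3 from between 8.07 and 8.17 to between 5.44 and 6.29.

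Among the 20 measured myogenic factors and cofactors, the regulators of the muscle program, 0 rose and 1 fell over this day. That is near the share over all genes, of which 3.89% were called. The median difference of the list was -0.10, and the blocked fit called 2 risen and 2 fallen. Myod1, the determination factor, read 10.30, 10.30 and 9.69 at 24 h and 10.07, 10.28 and 9.47 at 48 h. Myog read 12.95, 12.62 and 12.39 at 24 h and 12.78, 12.73 and 12.38 at 48 h. In both genes the groups overlapped, with differences of -0.16 (SE 0.28) and -0.02 (SE 0.64). Myf6, the factor of mature fibres, stayed between 3.42 and 3.96 on the 6 arrays. Myf5, the factor of myoblasts, read 6.83, 6.62 and 7.10 at 24 h against 5.81, 5.91 and 6.61 at 48 h, so that the groups touched without overlapping, and its difference of -0.74 (SE 0.35) was not called. Mef2c, a partner of the myogenic factors at muscle promoters, differed by 1.07 (SE 0.45) with groups that overlapped. It was not called (adjusted p = 0.226), but was with the passage as a block (adjusted p = 0.049). The fallen member was Six4, a homeobox factor, at -0.60 (adjusted p = 0.0333), and its call was lost in 6 of 17 alternative fits.

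Most contractile genes had risen over the first day in differentiation medium, and a smaller set rose over the second. From 0 h to 24 h 15 of 23 thick filament and M-band genes, 18 of 21 thin filament genes and 15 of 23 Z-disc genes rose, against 6.56% of all genes. From 24 h to 48 h 3 of the 23 thick filament and M-band genes rose and 0 fell, with a median difference of 0.45. Myl2, the regulatory light chain of slow and cardiac muscle, read 3.83, 3.95 and 4.14 at 24 h and 6.37, 6.99 and 6.82 at 48 h. It rose by 2.75 (SE 0.17, adjusted p = 2.76e-14), and every array of 48 h exceeded every array of 24 h by more than the range within either group. Its 24 h arrays lay near the array medians of 4.08 to 4.09, low on the scale, and no detection call was used, so that the size of this rise and its place among the others are less certain than its standard error shows. Myh8, the perinatal heavy chain, read 7.05, 5.10 and 5.53 at 24 h and 8.32, 7.25 and 7.47 at 48 h. Its rise was 1.79 (SE 0.34, adjusted p = 0.000927), with replicate 1 the highest at both times. Myh4, the heavy chain of the fastest fibres, read 5.32, 3.93 and 4.92 at 24 h and 6.42, 5.47 and 5.94 at 48 h, a rise of 1.22 (SE 0.23, adjusted p = 0.000978). The embryonic chain Myh3 and the adult chain Myh1 differed by 0.44 (SE 0.80) and 0.93 (SE 0.70) and were not called in this fit, although Myh1 was when the 6 arrays were fitted alone (adjusted p = 0.0315).

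Thin filament genes were mostly above at 48 h without being called. Of 21 measured members 14 had all 48 h arrays above all 24 h arrays, against 9.35% of all genes, and their median difference was 0.36, yet 0 rose and 0 fell. With the passage as a block 5 rose, and with the 6 arrays alone 6 rose. Tnnt3, the fast troponin T, read 10.96, 10.48 and 10.60 at 24 h and 11.88, 11.84 and 11.74 at 48 h. Its difference was 1.14, and its standard error of 0.66 drew on the spread of all 16 groups (adjusted p = 0.454, and 0.00774 with the 6 arrays alone). Acta1 read 13.60, 13.37 and 13.30 at 24 h and 13.77, 13.81 and 13.63 at 48 h, a difference of 0.31 (SE 0.60). Cardiac actin Actc1 differed by 0.20 (SE 0.69).

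Of 23 Z-disc genes 7 rose and 0 fell, with a median of 0.44. Tcap, the telethonin that caps titin at the Z-disc, read 5.25, 5.00 and 5.03 at 24 h and 8.22, 7.11 and 7.28 at 48 h. It rose by 2.44 (SE 0.21, adjusted p = 4.82e-10), and the arrays of 24 h were close together while replicate 1 led at 48 h. Actn2, the muscle alpha-actinin that cross-links actin at the Z-disc, rose by 1.45 (SE 0.36, adjusted p = 0.0136). The calcineurin-binding calsarcin Myoz2 read 9.59, 9.20 and 9.56 at 24 h and 10.79, 10.89 and 10.83 at 48 h, a rise of 1.38 (SE 0.38, adjusted p = 0.0274). Csrp3 (muscle LIM protein) rose by 1.38, Myot (myotilin) by 1.33, the stretch-responsive Ankrd2 by 1.13 and Mypn (myopalladin) by 0.99. Ankrd23, an ankyrin repeat protein of the same family as Ankrd2, was not on the list and rose by 1.86 (SE 0.18, adjusted p = 5.29e-09). The list count was 2 without 24 h replicate 2, without 24 h replicate 3 or without 48 h replicate 1, and 4 without 48 h replicate 2. Leaving out 48 h replicate 1 ended the calls of Actn2, Myoz2, Csrp3 and Myot (adjusted p 0.0543 to 0.171), Myoz2 and Csrp3 lost theirs without any 1 of the 6 arrays, and Actn2, Ankrd2 and Mypn without 24 h replicate 2 or 3. Mypn also lost its call without 48 h replicate 1 and Ankrd2 without 48 h replicate 2. The 6 arrays alone ended those of Myh8, Myh4, Actn2 and Myot (adjusted p 0.101 to 0.134) and of Mypn.

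Upstream sequences of 4 risen muscle genes are shown because motifs of muscle factors were found in them, from the promoter table of RefSeq on build GRCm38.p6. Each runs 5′ to 3′ up to the base before the transcript start, with matches in capitals: the E-box CAGCTG, a form that myogenic factors bind, and the A/T-rich MEF2 site. Both strands of the 250 bases upstream were searched.
Cav3, chr6:112459355-112459504, plus strand: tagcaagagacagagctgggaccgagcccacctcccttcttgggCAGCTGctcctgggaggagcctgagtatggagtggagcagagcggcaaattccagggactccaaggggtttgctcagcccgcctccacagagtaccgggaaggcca
Myoz2, chr3:123034988-123035137, minus strand: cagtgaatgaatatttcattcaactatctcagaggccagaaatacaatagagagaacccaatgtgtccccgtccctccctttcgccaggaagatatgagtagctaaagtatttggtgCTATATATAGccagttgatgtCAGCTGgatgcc
Pgam2, chr11:5803797-5803946, minus strand: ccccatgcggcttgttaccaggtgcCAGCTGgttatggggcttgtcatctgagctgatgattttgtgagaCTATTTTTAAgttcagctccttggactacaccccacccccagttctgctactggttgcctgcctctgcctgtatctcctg
Myh8, chr11:67276974-67277123, plus strand: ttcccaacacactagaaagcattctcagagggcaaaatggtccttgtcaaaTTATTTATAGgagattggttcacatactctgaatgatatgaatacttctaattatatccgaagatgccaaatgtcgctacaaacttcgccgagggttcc
Cav3 holds CAGCTG 106 bases before the start. Myoz2 has the MEF2 site CTATATATAG 33 bases and CAGCTG 12 bases before its start, and Pgam2 has CAGCTG at 125 and the MEF2 site CTATTTTTAA at 80 bases. In Myh8 the MEF2 site is TTATTTATAG, 99 bases before the start. A MEF2 site was found in 18.9% of the 53 sarcomere list genes with a window, in 6.06% of the 66 genes risen at least 2-fold with one and in 1.90% of all 14453 windows of tested genes. For CAGCTG the shares were 34.0%, 18.2% and 12.5%, and for the CArG box of serum response factor 13.2%, 1.52% and 1.21%. At least 2 E-boxes of the general form CANNTG, which includes CAGCTG, were in 45.3%, 45.5% and 26.1%. Among the 62 genes fallen at least 2-fold with a window the MEF2 share was 1.61% and the CAGCTG share 17.7%. These letters describe the windows and no test was made on them.

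**Figure D2:**
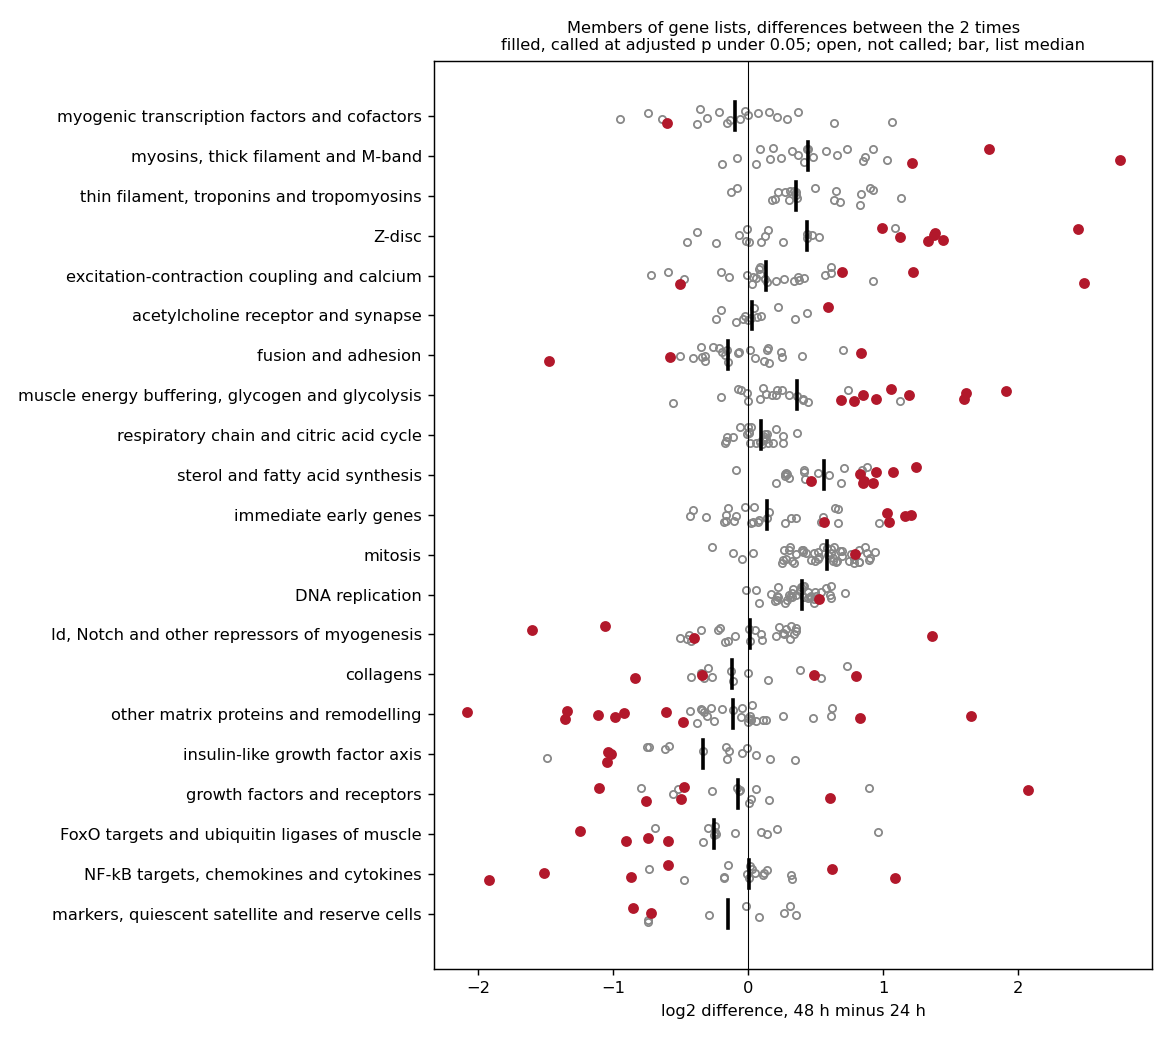
Log2 difference, 48 h minus 24 h, for every measured member of 21 gene lists; filled red points were called at an adjusted p under 0.05, open grey points were not, and the black bar is the list median. Sarcomere, energy, sterol, mitosis and DNA replication lists lie mostly to the right of 0, with 1 called member each in the lists of mitosis and DNA replication, and the insulin-like growth factor list has a median of -0.33.

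A few genes of calcium release rose. In the list of excitation-contraction coupling 3 of 28 members rose and 1 fell, with a median of 0.13; the blocked fit called 4 and 2. Casq1, the calcium-storing calsequestrin of fast fibres, read 5.84, 4.57 and 4.73 at 24 h and 8.21, 7.27 and 7.13 at 48 h. It rose by 2.49 (SE 0.21, adjusted p = 2.32e-10), and replicate 1 was the highest at each time. Its cardiac relative Casq2 read 11.53, 11.05 and 11.34 at 24 h and 11.49, 11.76 and 11.69 at 48 h, with overlapping groups and a difference of 0.34 (SE 0.53). Cacna1s, the voltage sensor of the muscle cell, rose by 1.22 (SE 0.27, adjusted p = 0.00412), and the calcium buffer Pvalb by 0.70 (SE 0.18, adjusted p = 0.0178). Asph, whose locus also encodes junctin, fell by 0.50 (SE 0.13, adjusted p = 0.0165). On the mean of its probe sets Asph differed by 0.07 (adjusted p = 0.907). Calls were also lost for Cacna1s without 24 h replicate 2 (adjusted p = 0.0504) and for Pvalb without 24 h replicate 1 or 3 or 48 h replicate 1 or 2 (adjusted p up to 0.128). Asph lost its call without 24 h replicate 1 or 3 or 48 h replicate 2 as well, and with the 6 arrays alone.

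Cav3, the caveolin of muscle membranes, read 8.59, 7.71 and 7.51 at 24 h and 10.31, 9.68 and 9.57 at 48 h. It rose by 1.92 (SE 0.26, adjusted p = 4.29e-06), and the lowest 48 h array was about 1 log2 unit above the highest 24 h array. In the same list of dystrophin complex and caveolae genes 1 of 22 rose and 1 fell, the latter being Sgce, a sarcoglycan found beyond muscle, at -0.53 (SE 0.12, adjusted p = 0.00666). The blocked fit called 2 risen and 2 fallen members. Sgce was not called without 24 h replicate 3, without 48 h replicate 1, with the 6 arrays alone and on the mean of its probe sets. Musk, the receptor kinase that organises the neuromuscular synapse, read 6.78, 7.02 and 6.90 at 24 h and 7.56, 7.60 and 7.31 at 48 h. It rose by 0.59 (SE 0.13, adjusted p = 0.00542) and was the 1 called gene of 14 in the acetylcholine receptor list.

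Of the 27 fusion and adhesion genes 1 rose and 2 fell, and the median was -0.15; the blocked fit called 1 and 4. Mymk (myomaker) and Mymx (myomixer), the membrane proteins that drive myoblast fusion, were already between 10.85 and 11.64 on the 24 h arrays. Their differences were 0.16 (SE 0.73) and 0.71 (SE 0.49), neither called, although Mymx was with the 6 arrays alone (adjusted p = 0.0203). Vcam1, an adhesion receptor of myoblasts, read 9.53, 9.87 and 9.93 at 24 h and 8.03, 8.40 and 8.48 at 48 h. It fell by 1.47 (SE 0.18, adjusted p = 7.65e-07), with more than 1 log2 unit between the groups. Ptgfrn, a tetraspanin partner, fell by 0.58 (SE 0.12, adjusted p = 0.00183), and the membrane repair gene Dysf rose by 0.83 (SE 0.21, adjusted p = 0.016). With the 6 arrays alone both lost their calls (adjusted p 0.0516 and 0.0767). Dysf also lost its own without 24 h replicate 2 or 3 or 48 h replicate 1, and Ptgfrn on the mean of its probe sets (adjusted p = 0.365).

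Several energy supply genes rose, most of them muscle forms. In the list of energy buffering, glycogen and glycolysis 9 of 29 rose and 0 fell, with a median of 0.36. Fabp3, the fatty acid carrier of heart and muscle, read 6.13, 5.71 and 6.01 at 24 h and 8.03, 7.27 and 7.40 at 48 h, a rise of 1.62 (SE 0.19, adjusted p = 2.37e-07). Mb (myoglobin), the oxygen store, read 10.17, 9.61 and 9.68 at 24 h and 11.98, 11.58 and 11.63 at 48 h. Its rise of 1.91 carried a standard error of 0.50 (adjusted p = 0.0187), although its groups lay more than 1 unit apart. Cox6a2, the muscle form of a cytochrome oxidase subunit, rose by 1.60 (SE 0.38, adjusted p = 0.00802). Pgam2, the muscle phosphoglycerate mutase, rose by 1.19 (SE 0.31, adjusted p = 0.0201), and Adssl1, the muscle enzyme of the purine nucleotide cycle, by 1.06 (SE 0.21, adjusted p = 0.00163). Ckb, the brain form of creatine kinase, rose by 0.95 (SE 0.15, adjusted p = 5.99e-05). The muscle form Ckm read 10.86, 10.56 and 9.80 at 24 h and 11.40, 11.48 and 10.55 at 48 h, a difference of 0.74 (SE 0.55) that was not called. Of 26 respiratory chain and citric acid cycle genes 0 rose and 0 fell, with a median of 0.09, and the blocked fit called 3 risen. With 3.89% of all genes called, a count of 0 in a list of this size is near the background. The energy list count was 3 without 48 h replicate 1, 4 without 24 h replicate 2 or 3, and 5 with the 6 arrays alone. Mb and Pgam2 lost their calls without 24 h replicate 2 or 3 or 48 h replicate 1, and Cox6a2 without 24 h replicate 2 or 48 h replicate 1 (adjusted p 0.0629 to 0.218).

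Many genes of sterol and fatty acid synthesis were higher at 48 h. The list had 24 measured members, of which 8 rose and 0 fell, against 1.88% and 2.01% of all genes. In 16 members all 48 h arrays lay above all 24 h arrays, against 9.35% of all genes, and the median difference of the list was 0.56. With the passage as a block 15 rose, and 3 did without 48 h replicate 1 and 5 without 24 h replicate 2. Insig1, the sterol-sensing regulator of this pathway, read 5.98, 5.95 and 6.31 at 24 h and 7.83, 7.13 and 7.01 at 48 h. It rose by 1.24 (SE 0.23, adjusted p = 0.000507). Cyp51, the lanosterol demethylase, read 8.44, 8.18 and 8.37 at 24 h and 9.55, 9.09 and 9.20 at 48 h, a rise of 0.95 (SE 0.20, adjusted p = 0.00248). Later steps of cholesterol synthesis rose by 1.07 in Dhcr7, 0.93 in Sc5d, 0.86 in Msmo1, 0.85 in Nsdhl and 0.83 in Ebp, and the desaturase Scd2 rose by 0.46. Hmgcs1, at the head of the pathway, read 10.49, 10.05 and 10.24 at 24 h and 10.82, 9.90 and 10.90 at 48 h. Its groups overlapped, with a difference of 0.28 (SE 0.28). Without 48 h replicate 1 Dhcr7, Sc5d, Msmo1 and Nsdhl lost their calls (adjusted p 0.0642 to 0.235), as did Scd2 there and without 24 h replicate 2 (adjusted p = 0.102 and 0.116), and Dhcr7 and Nsdhl also without 24 h replicate 2 or 3 or 48 h replicate 2. Nsdhl lost its call without 24 h replicate 1 as well, and Dhcr7 and Scd2 with the 6 arrays alone (adjusted p = 0.0945 and 0.0952). Scd2 was not called on the mean of its probe sets.

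Upstream sequences of 3 genes of the pathway are shown because CCAAT boxes, which bind the NF-Y factor that works beside the sterol-responsive SREBP factors, were frequent in this list. Capitals mark CCAAT, or its reverse complement ATTGG, and the sterol element core TCACNCCAC, a motif added to the search at a later point.
Msmo1, chr8:64733579-64733778, minus strand: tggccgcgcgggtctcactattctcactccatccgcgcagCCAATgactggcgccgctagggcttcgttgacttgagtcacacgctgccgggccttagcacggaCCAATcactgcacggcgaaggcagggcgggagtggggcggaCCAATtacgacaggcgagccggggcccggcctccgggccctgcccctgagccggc
Cyp51, chr5:4104698-4104847, minus strand: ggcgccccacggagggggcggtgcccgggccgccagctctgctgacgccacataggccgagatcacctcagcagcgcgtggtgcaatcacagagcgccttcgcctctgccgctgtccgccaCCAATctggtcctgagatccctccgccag
Hmgcs1, chr13:119690151-119690350, plus strand: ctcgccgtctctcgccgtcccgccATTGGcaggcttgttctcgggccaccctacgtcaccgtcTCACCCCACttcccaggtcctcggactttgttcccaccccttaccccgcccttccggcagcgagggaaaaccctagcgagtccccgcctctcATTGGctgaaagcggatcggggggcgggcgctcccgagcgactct
Msmo1 holds CCAAT at 160, 96 and 55 bases before the start, and Cyp51 at 29 bases. Hmgcs1 holds ATTGG at 176 and 45 bases and the core TCACCCCAC at 137 bases. A CCAAT box was in 83.3% of the 18 windows of the list against 35.7% of all windows of tested genes. The sterol core was in 1 of the 18 (5.56%), that of Hmgcs1, against 1.02% of all, and Hmgcs1 itself was not called. The genes risen and fallen at least 2-fold held CCAAT in 36.4% and 37.1% of their windows.

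Mitosis and DNA replication genes lay higher at 48 h than at 24 h by amounts that mostly did not pass the test, while cell cycle regulators had a median difference of 0.01. In the mitosis list 33 of 49 members had all 48 h arrays above all 24 h arrays (9.35% of all genes did), and the median difference was 0.59. Only 1 member rose and 0 fell, while the blocked fit called 12 risen and the 6 arrays alone 19. The called gene was the spindle checkpoint protein Mad2l1, which read 8.74, 8.78 and 8.89 at 24 h and 9.63, 9.44 and 9.72 at 48 h. It rose by 0.79 (SE 0.22, adjusted p = 0.0333). Melk, a kinase of dividing cells, read 7.06, 7.02 and 7.04 at 24 h and 7.85, 7.88 and 7.85 at 48 h, a difference of 0.83 with a standard error of 0.25 that missed the threshold (adjusted p = 0.0591; 0.0146 with the passage as a block). The centromere histone Cenpa differed by 0.94 (SE 0.30, adjusted p = 0.0671; 0.0337 with the block). In the DNA replication list 25 of 40 members were above without overlap, the median was 0.40, 1 rose and 0 fell, and the blocked fit called 4 risen. The risen gene was Rrm2, a subunit of ribonucleotide reductase, at 0.53 (SE 0.15, adjusted p = 0.039). Of 29 cell cycle regulators the repressive E2F factors E2f7 and E2f8 rose, by 0.81 (SE 0.23, adjusted p = 0.0321) and 0.53 (SE 0.14, adjusted p = 0.025). Cdkn1a, a cyclin-dependent kinase inhibitor that acts in exit from the cycle, differed by 0.18 (SE 0.36), and cyclin D1 (Ccnd1) by -0.42 (SE 0.19), neither called. The kinase gene Cdk6 differed by -0.69 (SE 0.22, adjusted p = 0.0616; 0.0069 with the block), and the blocked fit called 3 regulators risen and 1 fallen. All 4 called genes lost their calls without 48 h replicate 1 (adjusted p 0.12 to 0.292), and also without 24 h replicate 2 or 3. Rrm2, Mad2l1 and E2f7 lost them without 24 h replicate 1 or 48 h replicate 3 too, and Rrm2 without 48 h replicate 2. A further quantile normalisation of the 48 arrays ended the calls of Rrm2 and Mad2l1 (adjusted p 0.065 and 0.0689), the 6 arrays alone that of E2f8 (adjusted p = 0.138), and leaving out shared-probe sets that of Rrm2 (adjusted p = 0.0582).

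The 2 steps beside this one share arrays with it, and their own values stand here for comparison. From 0 h to 24 h 39 of the 49 mitosis genes fell and 0 rose, with a median of -0.92, and from 48 h to 96 h 43 fell and 0 rose, with a median of -1.45. For DNA replication 10 of 40 fell over the first day and 33 fell from 48 h to 96 h. Over all genes 7.42% fell over the first day and 2.68% from 48 h to 96 h, a step in which 4.64% were called and 1.96% rose. The mean level of Mad2l1 went from 9.58 (0 h) to 8.80 (24 h), 9.60 (48 h) and 7.70 (144 h).

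The windows upstream of E2f7 and E2f8 are shown because both hold motifs of cell cycle promoters. Capitals mark CCAAT or ATTGG, the cell cycle homology region TTTGAA (or TTCAAA on the other strand) and an E2F site, searched as TTTCCCGC, TTTCGCGC, TTTGCCGC or TTTGGCGC on both strands.
E2f7, chr10:110745219-110745438, plus strand: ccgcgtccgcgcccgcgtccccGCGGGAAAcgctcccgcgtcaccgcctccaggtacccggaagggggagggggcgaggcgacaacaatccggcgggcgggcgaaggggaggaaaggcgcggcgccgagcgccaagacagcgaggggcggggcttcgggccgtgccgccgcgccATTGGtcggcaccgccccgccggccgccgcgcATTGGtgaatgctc
E2f8, chr7:48881597-48881746, minus strand: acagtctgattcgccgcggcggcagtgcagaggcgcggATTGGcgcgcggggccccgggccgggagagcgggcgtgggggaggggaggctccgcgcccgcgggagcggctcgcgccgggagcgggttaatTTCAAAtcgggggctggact
E2f7 has the E2F site GCGGGAAA 198 bases before the start and ATTGG at 46 and 14 bases. E2f8 has ATTGG at 112 and TTCAAA at 20 bases. CCAAT was in 73.2% of the 41 mitosis windows and 60.6% of the 33 DNA replication windows, against 35.7% of all. TTTGAA was in 34.1% of mitosis windows against 11.9% of all, and an E2F site in 24.2% of replication windows against 2.80% of all.

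**Figure D3:**
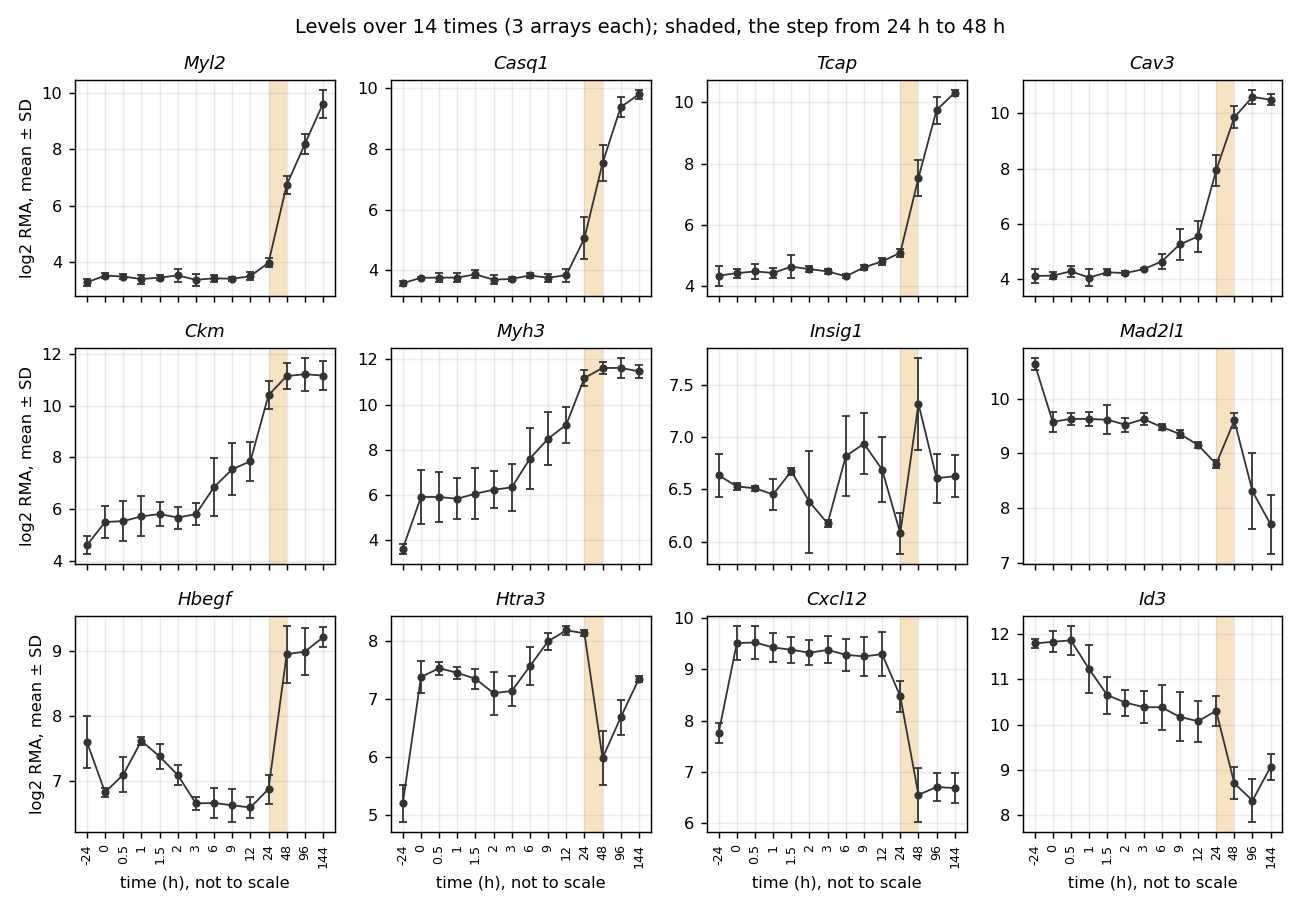
Mean log2 RMA level with its SD (3 arrays a time) for 12 genes over the 14 times without cycloheximide; the times are evenly spaced and not to scale, and the step from 24 h to 48 h is shaded. Myl2, Casq1 and Tcap leave their low level after 12 h or 24 h, Ckm and Myh3 are near their highest level by 24 h, Insig1 and Mad2l1 are higher at 48 h than at 24 h and 96 h, and Htra3, Cxcl12 and Id3 drop within the shaded step.

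The growth factor gene Hbegf and 5 immediate early genes, a class that responds quickly to mitogens, rose over the day. Hbegf, a ligand of the epidermal growth factor receptor, read 7.06, 6.63 and 6.92 at 24 h and 9.44, 8.59 and 8.81 at 48 h. It rose by 2.07 (SE 0.20, adjusted p = 4.96e-09), with the groups more than 1 unit apart. In the immediate early list 5 of 31 rose and 0 fell, with a median of 0.14; the blocked fit called 8, and 3 remained called in number without 24 h replicate 1 or without 48 h replicate 1. Egr2, a zinc finger factor, read 7.73, 8.05 and 8.33 at 24 h and 9.35, 8.90 and 9.35 at 48 h, a rise of 1.16 (SE 0.22, adjusted p = 0.000686). Its relative Egr3 rose by 1.21 (SE 0.32, adjusted p = 0.0215), the matricellular Ccn2 by 1.05 (SE 0.24, adjusted p = 0.00665), Klf10 by 1.03 (SE 0.19, adjusted p = 0.000735) and Ier5 by 0.57 (SE 0.10, adjusted p = 0.000496). Egr3 lost its call without 24 h replicate 1 or 2 or 48 h replicate 1 or 3, and Ccn2 without 24 h replicate 1 or 48 h replicate 1 (adjusted p 0.0505 to 0.134 over both genes).

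Several receptors and signal transducers of growth factors fell. In the list of growth factors and receptors 2 of 18 rose, Hbegf and the platelet-derived ligand Pdgfa, the latter by 0.61 (SE 0.12, adjusted p = 0.0018), and 4 fell. Pdgfra, a receptor of Pdgfa, read 5.69, 5.75 and 5.96 at 24 h and 4.37, 4.87 and 4.85 at 48 h. It fell by 1.10 (SE 0.21, adjusted p = 0.00103), and at the smallest among alternative fits its difference was -0.39. The fibroblast growth factor receptors Fgfr4 and Fgfr1 fell by 0.76 and 0.50, and Il6st, the shared receptor chain of the interleukin-6 family, by 0.47. The receptor genes Pdgfrb, Egfr, Fgfr2 and Fgfr3 differed by -0.07, -0.06, 0.06 and 0.02 and were not called. Among 17 genes of the insulin-like growth factor axis 0 rose and 3 fell, with a median of -0.33, and the blocked fit called 7 fallen. Irs1, the docking protein below the insulin and insulin-like receptors, read 10.97, 10.93 and 10.79 at 24 h and 9.79, 9.81 and 9.95 at 48 h. It fell by 1.05 (SE 0.17, adjusted p = 0.000122), and the receptor gene Igf1r by 1.04 (SE 0.23, adjusted p = 0.00387). For Igf1r the difference was -0.40 at the smallest among alternative fits. Igfbp4, a binding protein of these factors, fell by 1.02 (SE 0.27, adjusted p = 0.0205). The ligand Igf2 read 11.95, 10.85 and 10.50 at 24 h and 12.07, 10.79 and 10.93 at 48 h. Passages differed more than times in Igf2, and its difference was 0.16 (SE 0.92). The other ligand, Igf1, had the largest difference of the list, -1.49. It was not called, nor was it with the passage as a block (adjusted p = 0.0801). Without 48 h replicate 1 the calls of Igfbp4, Fgfr4, Fgfr1 and Il6st were lost, and without 24 h replicate 2 those of Igfbp4, Fgfr4 and Fgfr1. Igfbp4 also lost its call without 24 h replicate 3 and without shared-probe sets, and Fgfr4 without 48 h replicate 3. Il6st lost its call without 48 h replicate 2. The 6 arrays alone ended the calls of Pdgfa, Fgfr4, Fgfr1 and Il6st, with an adjusted p of 0.0764 for Pdgfa and 0.0562 or more for the others.

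In the list of transforming growth factor beta, bone morphogenetic proteins and myostatin 4 of 22 rose and 3 fell. Fstl3, a secreted trap of activin and myostatin, read 6.97, 6.70 and 6.92 at 24 h and 8.58, 8.44 and 8.17 at 48 h. It rose by 1.53 (SE 0.26, adjusted p = 0.000166). Fst (follistatin), of the same family, rose by 1.40 (SE 0.40, adjusted p = 0.039), Tgfb1 by 1.12 (SE 0.32, adjusted p = 0.0392) and Gdf5 by 0.53 (SE 0.15, adjusted p = 0.0297). The ligand Bmp4 read 7.95, 7.81 and 7.30 at 24 h and 6.46, 6.21 and 6.06 at 48 h, and fell by 1.44 (SE 0.33, adjusted p = 0.0072). Its antagonist Grem1 fell by 1.20 (SE 0.26, adjusted p = 0.00332), and the signal transducer Smad3 by 0.49 (SE 0.14, adjusted p = 0.0296). Without 48 h replicate 1 the calls of Fst, Tgfb1, Gdf5 and Grem1 were lost (adjusted p 0.0613 to 0.372). Fst, Tgfb1 and Gdf5 also lost theirs without 24 h replicate 2 or 3 or 48 h replicate 2, Gdf5 without 24 h replicate 1, and Fst without 48 h replicate 3. Tgfb1 was not called on the mean of its probe sets (adjusted p = 0.0558) or without the cycloheximide arrays (adjusted p = 0.0514). At the smallest among alternative fits its difference was 0.49. The 6 arrays alone ended the calls of Tgfb1 and Gdf5 (adjusted p 0.0653 to 0.102). Smad3 lost its call without 1 array in 5 of 6 fits, the exception being the fit without 48 h replicate 2, and was at an adjusted p of 0.626 on the mean of its probe sets. The number risen was 2 with the 6 arrays alone and 1 without 24 h replicate 2 or 3 or 48 h replicate 1 or 2.

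Few of the listed repressors of myogenesis were called. In the list of Id, Notch and other repressors 1 of 29 rose and 3 fell, against 1.88% and 2.01% of all genes. The median difference was 0.01, and the blocked fit called 1 risen and 5 fallen. Id3, which blocks myogenic factors by binding their E-protein partners, read 10.60, 10.36 and 9.94 at 24 h and 8.82, 8.97 and 8.30 at 48 h. It fell by 1.60 (SE 0.29, adjusted p = 0.000345), and the lowest 24 h array was close to 1 unit above the highest of 48 h. Its relative Id1 read 8.87, 8.70 and 8.24 at 24 h and 8.62, 8.35 and 8.17 at 48 h, with overlap and a difference of -0.22 (SE 0.34). Snai2, a repressor of mesenchymal cells, fell by 1.06 (SE 0.28, adjusted p = 0.0229), and Rbpj, the DNA-binding partner of Notch, by 0.40 (SE 0.11, adjusted p = 0.0319). Bhlhe40, a basic helix-loop-helix repressor, read 8.28, 8.41 and 8.47 at 24 h and 9.98, 9.50 and 9.78 at 48 h. It rose by 1.37 (SE 0.17, adjusted p = 1.18e-06). Snai2 and Rbpj lost their calls without 24 h replicate 3, without 48 h replicate 1 or 2 and with the 6 arrays alone (adjusted p 0.0625 to 0.298), and Snai2 without 24 h replicate 1.

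Of 10 markers of quiescent satellite and reserve cells 0 rose and 2 fell, with a median difference of -0.15. The mean of the 10 markers was between 6.78 and 6.89 on the 24 h arrays and between 6.50 and 6.66 on the 48 h arrays. Members that were not called ranged from Myf5 and Cd34, both at -0.74, through Pax3 at -0.01 to Spry1 at 0.31 and Hey1 at 0.36, and Cd34 was called with the block (adjusted p = 0.0487). Pax7, the defining factor of satellite cells, read 8.54, 8.65 and 8.61 at 24 h and 7.80, 8.05 and 7.80 at 48 h. It fell by 0.72 (SE 0.11, adjusted p = 4.27e-05), with tight groups that did not overlap. Cxcr4, the receptor of Cxcl12, fell by 0.85 (SE 0.23, adjusted p = 0.0265), a call that was lost in 5 of the 6 fits that left out 1 array, the exception being the fit without 48 h replicate 2. Calcr, a marker of quiescence, stayed between 2.98 and 3.33. The part of these cells in the falls of Id3, Vcam1, Pdgfra and the matrix genes was not tested. Smooth muscle and stress fibre markers had 0 of 14 called, with a median of 0.06. The actin-binding Tagln differed by 0.97 (SE 0.29, adjusted p = 0.0547). With the passage as a block 3 of the list rose and 2 fell. The risen were Cnn1 at 1.32, Tagln and Smtn at 0.35 (adjusted p = 0.00932, 0.00113 and 0.026). The fallen were Zyx at -0.63 and Cnn2 at -0.34 (adjusted p = 7.33e-06 and 0.04). Acta2 and Myh11 differed by 0.08 and 0.03.

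Most of the called matrix genes fell. Among matrix proteins other than collagens and their remodelling enzymes 2 of 35 rose and 8 fell, with a median of -0.11, and 4 fell without 48 h replicate 1. Ogn (osteoglycin), a small proteoglycan, read 11.39, 10.83 and 10.90 at 24 h and 8.17, 8.67 and 10.04 at 48 h. It fell by 2.08 (SE 0.47, adjusted p = 0.00545), and the 48 h arrays were spread over almost 2 units. Dcn (decorin), another small proteoglycan, fell by 1.35 (SE 0.38, adjusted p = 0.0309). Adamts5, a protease of proteoglycans, read 8.09, 7.95 and 7.99 at 24 h and 6.79, 6.41 and 6.82 at 48 h, and fell by 1.34 (SE 0.23, adjusted p = 0.000293). The basement membrane protein Nid2 fell by 1.11 (SE 0.17, adjusted p = 5.99e-05), the calcification inhibitor Mgp by 0.98 (SE 0.21, adjusted p = 0.00332) and the gelatinase Mmp2 by 0.92 (SE 0.13, adjusted p = 1.56e-05). Tnc (tenascin C) went the other way, from 8.54, 8.76 and 8.84 at 24 h to 10.75, 9.87 and 10.48 at 48 h. It rose by 1.65 (SE 0.18, adjusted p = 6.16e-08), and the protease inhibitor Timp1 by 0.83 (SE 0.13, adjusted p = 9.82e-05). Of 16 collagen chains Col1a1 rose by 0.80 (SE 0.15, adjusted p = 0.00101) and Col5a3 by 0.49, while Col12a1 fell by 0.84 and Col3a1 by 0.34. The blocked fit called 4 risen collagens. Without 48 h replicate 1 Ogn, Dcn, Col12a1, Col5a3 and Col3a1 lost their calls (adjusted p 0.0907 to 0.223). Dcn lost its call without each of the 24 h arrays too, and Dcn, Col12a1 and Col3a1 did without 48 h replicate 2. Neither Dcn nor Col5a3 was called on the mean of its probe sets (adjusted p 0.0748 to 0.0783). Col12a1, Col5a3 and Col3a1 lost theirs without 24 h replicate 2, Col12a1 without 24 h replicate 1 or 48 h replicate 3, and Col5a3 and Col3a1 without 24 h replicate 3 or with the 6 arrays alone.

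Among 21 NF-kB targets, chemokines and cytokines 2 rose and 4 fell. Cxcl12, a chemokine that guides myoblasts, read 8.62, 8.67 and 8.13 at 24 h and 5.95, 6.87 and 6.86 at 48 h. It fell by 1.92 (SE 0.24, adjusted p = 1.3e-06), with more than 1 unit between the groups. At the smallest among alternative fits the difference of Cxcl12 was -0.97. Ccl7 fell by 1.51, Cxcl5 by 0.87 and the NF-kB inhibitor Nfkbia by 0.60. Il6 was at 3.02, 3.01 and 3.01 at 24 h and 4.87, 3.37 and 4.07 at 48 h, a rise of 1.09 (SE 0.22, adjusted p = 0.00205) from the lowest part of the scale, and Lif rose by 0.62. Without 48 h replicate 1 Ccl7, Cxcl5, Nfkbia, Il6 and Lif lost their calls (adjusted p 0.0599 to 0.312). Cxcl5 lost its call without any 1 of the 6 arrays, Nfkbia without 24 h replicate 2 or 3, and Lif without any of the 24 h arrays or 48 h replicate 3. Lif was not called on the mean of its probe sets either (adjusted p = 0.224). The 6 arrays alone ended the calls of Il6, Lif and Nfkbia (adjusted p 0.115 to 0.139), and centring on housekeeping genes those of Nfkbia and Lif (adjusted p = 0.0505 and 0.0657).

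Of 16 FoxO targets and muscle ubiquitin ligases 0 rose and 4 fell, with a median of -0.25; the blocked fit called 1 risen and 4 fallen. Txnip, an inhibitor of glucose uptake and thioredoxin, read 9.07, 9.44 and 9.51 at 24 h and 7.53, 8.49 and 8.26 at 48 h. It fell by 1.25 (SE 0.20, adjusted p = 0.000106). The ubiquitin ligase Fbxo32 (atrogin 1) fell by 0.90 (SE 0.25, adjusted p = 0.0262), the stress-responsive Sesn1 by 0.74 (SE 0.16, adjusted p = 0.00399) and the coregulator Cited2 by 0.59 (SE 0.11, adjusted p = 0.00066). Fbxo32 lost its call without 24 h replicate 1 or 3 or 48 h replicate 1 or 2, Sesn1 without 48 h replicate 1, and Fbxo32 and Cited2 with the 6 arrays alone. On the mean of their probe sets Sesn1 and Cited2 were not called (adjusted p = 0.331 for Sesn1 and 0.196 for Cited2), nor was Sesn1 without shared-probe sets (adjusted p = 0.338). The number fallen was 2 without 48 h replicate 1 and 2 with the 6 arrays alone.

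Several of the largest changes were outside the fixed lists. Pstpip1, a cytoskeletal adaptor, read 4.69, 4.24 and 4.27 at 24 h and 7.47, 6.10 and 5.90 at 48 h, a rise of 2.09 (SE 0.26, adjusted p = 7.65e-07). Ctsw, a cysteine cathepsin known from lymphocytes, rose by 2.08, the tektin gene Tekt5 by 2.05, the annexin gene Anxa8 by 1.98, the chymotrypsinogen gene Ctrb1 by 1.94, the peptidylarginine deiminase gene Padi3 by 1.89 and Mgll, which breaks down monoacylglycerol, by 1.88. Anxa8 read 7.75, 8.44 and 8.82 at 24 h and 10.26, 10.13 and 10.55 at 48 h, while Padi3 started near the lower end of the scale, between 3.74 and 4.19. In each of these 7 genes the 48 h arrays were all above the 24 h arrays, and replicate 1 was the highest 48 h array in all but Anxa8.

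Htra3, a secreted serine protease, was tight at 24 h with 8.07, 8.17 and 8.14 and read 5.44, 6.29 and 6.20 at 48 h. It fell by 2.15 (SE 0.20, adjusted p = 2.44e-09). Selenop, the plasma selenium carrier, read 10.52, 10.62 and 10.55 at 24 h and 7.82, 8.89 and 8.65 at 48 h, and fell by 2.11 (SE 0.23, adjusted p = 6.26e-08). Rgs2, a brake on G protein signalling, read 7.03, 6.59 and 6.53 at 24 h and 4.63, 4.67 and 4.45 at 48 h, and fell by 2.14 (SE 0.22, adjusted p = 2.34e-08). Falls of similar size were called for the phosphodiesterase gene Pde7b (-2.18), the cytochrome P450 gene Cyp1b1 (-2.16), the calcineurin regulator Rcan2 (-2.03) and the aldehyde dehydrogenase gene Aldh3a1 (-1.86). Some sizes depended on the fit. At the smallest among alternative fits the difference was -0.85 in Htra3, -0.78 in Pde7b, -1.27 in Cyp1b1 and -1.05 in Rcan2. It was -1.79 in Selenop, -1.58 in Rgs2 and -1.62 in Aldh3a1. Gfra1, a receptor of glial cell line-derived neurotrophic factor, fell by 2.12, but was not called with the 6 arrays alone (adjusted p = 0.0547). Replicate 1 was the lowest 48 h array of Htra3, Selenop, Cyp1b1, Rcan2 and Gfra1, and not of Rgs2, Pde7b or Aldh3a1.

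For 5 other large falls the call or the direction depended on an array or a probe set. Lpl (lipoprotein lipase) read 9.38, 8.20 and 8.93 at 24 h and 7.11, 5.75 and 6.79 at 48 h. It fell by 2.29 (SE 0.61, adjusted p = 0.0215) and was not called without 24 h replicate 1 or 3 or 48 h replicate 2. The Wnt antagonist Sfrp2 fell by 2.24 (SE 0.53, adjusted p = 0.00881) and was not called without 24 h replicate 1. Angpt1, a vessel ligand, read 5.13, 4.74 and 7.21 at 48 h, and fell by 2.06 (SE 0.56, adjusted p = 0.0262). It kept its call in 1 of the 6 fits that left out an array, that without 48 h replicate 3. Plagl1 fell by 1.85 (SE 0.54, adjusted p = 0.0414) and lost its call in 9 of 16 alternative fits, among them those without 24 h replicate 1 or 3 and 48 h replicate 2 or 3. Without shared-probe sets Plagl1 differed by only -0.04 (adjusted p = 0.953), and on the mean of its probe sets it was not called (adjusted p = 0.0749). Masp1 fell by 1.84 (SE 0.16, adjusted p = 3.83e-10) on a probe set whose name marks probes shared between transcripts, and on its probe set without that mark it differed by 0.47 (adjusted p = 0.357). Lpl and Cebpa, at -1.07 (SE 0.26), were the 2 fallen members of 9 adipocyte markers, whose array means were between 4.60 and 4.93 at 24 h and between 4.35 and 4.57 at 48 h. Cebpa lost its call without 24 h replicate 1 or 2 or 48 h replicate 3. The defining adipocyte genes Adipoq and Fabp4 stayed between 2.77 and 4.07 on all 6 arrays.

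**Figure D4:**
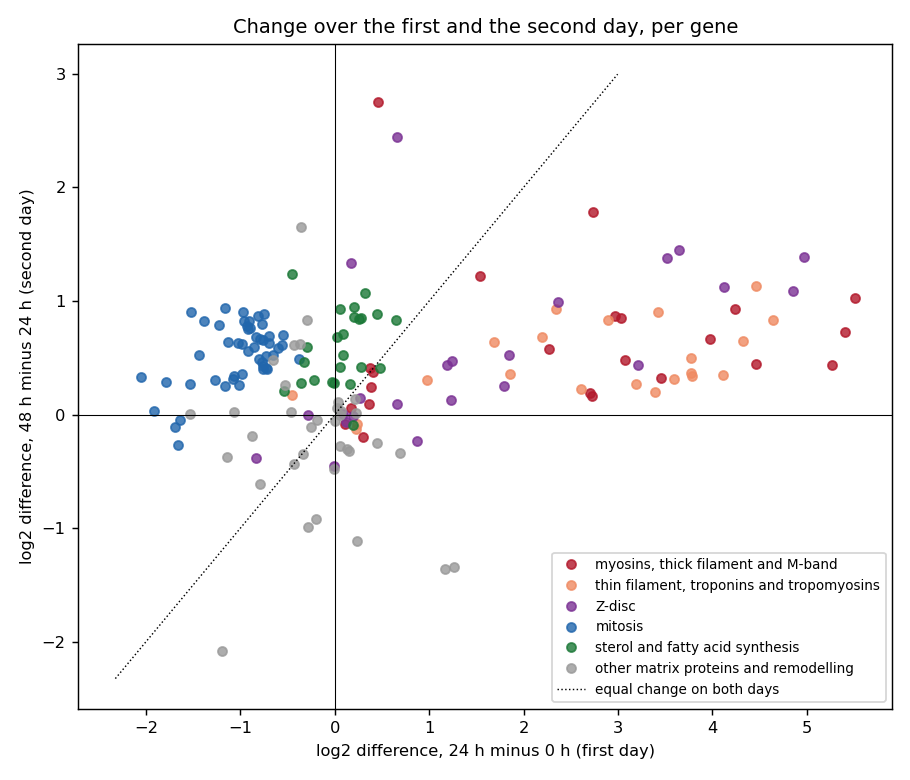
Log2 difference of each measured member of 6 lists over the first day (24 h minus 0 h, x axis) and the second day (48 h minus 24 h, y axis); the dotted line marks equal change, and both axes use the 24 h arrays. Thin filament and most myosin genes lie far to the right and little above 0, Myl2 and Tcap lie near 0 on the x axis and above 2 on the y axis, and mitosis genes lie to the left and mostly above 0.

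The change over the second day was set against that over the first, which shares the 24 h arrays with it, by testing the difference between them. Over the first day 2544 genes (14.0%) were called, and the difference between days was called for 348 genes (1.91%), 176 (0.967%) with a more positive second day and 172 (0.945%) with a more negative one. The blocked fit called 919, and leaving out 1 array at a time gave between 86 (without 24 h replicate 1) and 415 (without 48 h replicate 2). Without 24 h replicate 2 or 3 the count was 105 and 185, without 48 h replicate 1 or 3 it was 219 and 231, and without 0 h replicate 2 it was 186. Muscle genes that slowed were Casq2, Myl4, the chaperone adaptor Itgb1bp2, Ckm, the kinase Srpk3 and the myosin chaperone Unc45b. For Srpk3 this depended on the probe set, since its difference between days was much smaller without shared-probe sets, as given in a later section. Ckm rose by 4.91 (adjusted p = 2.54e-08) over the first day and differed by 0.74 over the second, a difference between days of -4.17 (adjusted p = 0.0146). Of the thin filament list, in which 18 of 21 rose over the first day with a median of 3.19, 6 were called with a more negative second day and 0 with a more positive one. For the thick filament list, with 15 of 23 risen over the first day and a median of 2.72, these numbers were 5 and 1. Myl2 was the exception, with 0.46 over the first day and 2.75 over the second (difference 2.30, adjusted p = 8.93e-06), and Tcap in the Z-disc list, with 0.66 and 2.44 (difference 1.78, adjusted p = 0.00703), moved the same way. Casq1 differed by 1.19 between the days and was not called (adjusted p = 0.0823). In the mitosis list 8 of 49 and in the DNA replication list 3 of 40 were called with a more positive second day, and 0 with a more negative one.

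The remaining lists had few calls. Of all genes 3.89% were called, so that counts of 0 or 1 in lists this short say little about their members. Of 23 ribosome biogenesis genes 0 were called, of 15 circadian clock genes 0, of 9 bone and cartilage markers 0 and of 7 neuronal and glial markers 0. Single calls were Psmd13 of 31 proteasome subunits at 0.42, Phgdh of 24 genes of the amino acid and unfolded protein responses at 0.87, Rbm38 of 13 splicing regulators at 0.78 and Gbp2 of 22 interferon genes at -0.41, each of which was lost in at least 5 alternative fits. The lysosomal protease Ctsb fell by 0.63 (SE 0.11, adjusted p = 0.000247) as 1 of 15 lysosome genes. Among 12 p53 targets Ei24 rose by 0.54 (SE 0.13, adjusted p = 0.00744) and Sesn1 fell. The muscle small heat shock genes Hspb7 and Hspb3 rose by 1.23 (SE 0.21, adjusted p = 0.000264) and 0.87 (SE 0.21, adjusted p = 0.0115) among 15 heat shock genes. Of 17 hypoxia genes Egln3, an oxygen-sensing hydroxylase, rose by 0.87 (SE 0.14, adjusted p = 0.000122) and Higd1a by 0.64 (SE 0.16, adjusted p = 0.0114). Without 48 h replicate 1 Ei24, Hspb3 and Higd1a lost their calls (adjusted p 0.0677 or more). Hspb3 was not called without 24 h replicate 2, Ei24 without 48 h replicate 2, and Hspb7 and Ei24 with the 6 arrays alone. Higd1a was not called without 24 h replicate 1 or 2 or on the mean of its probe sets. The blocked fit called 4 risen proteasome genes, 5 of the unfolded protein list, 4 of the hypoxia list, 3 fallen lysosome genes and 3 fallen interferon genes. It also called 2 risen ribosome biogenesis genes, Rrp12 and Wdr12 (adjusted p = 0.00167 and 0.0293), the bone marker Dmp1 risen (adjusted p = 0.0487), the neuronal marker Map2 fallen (adjusted p = 0.0282), 2 risen p53 targets, 1 fallen heat shock gene, 1 fallen hypoxia gene, 1 risen adipocyte marker, and 1 risen and 1 fallen housekeeping gene.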

How the data were processed

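The deposited values were used as they stand: log2 expression after RMA in the authors' series table, per the submitters' processing notes, which name no version, so the background correction and normalisation were theirs. Raw scanner files were not used here, and depth has no meaning for these arrays, whose number limits the precision. Of 45101 probe sets, 64 were controls, 34958 carried 1 gene symbol in the platform annotation, 932 carried several and 9211 had none listed. For each of 18194 genes the probe set that was brightest on average across the 48 arrays was kept. No 2 arrays held identical values.

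limma 3.58.1 in R 4.3.3 was fitted with 1 coefficient for each of the 16 groups (lmFit, eBayes with default settings, 32 residual degrees of freedom). Tests were two-sided, and p-values were adjusted by Benjamini-Hochberg over all genes, with 0.05 as the threshold. The procedure was tested on simulated data. Those data held independent noise on each array and no passage effect, so they cannot show how the passages bear on the calls. No filter on low values was set. Alternatives covered the normalisation, centring, arrays fitted, moderation, a filter on low values, probe sets, the passage block and leaving out each array.

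The labels give replicate numbers and state that replicates came from successive passages. Deviations from the group mean of arrays with the same number correlated at 0.367, 0.632 and 0.601 between 24 h and 48 h over 7866 genes with a mean above 6, so the numbers were taken to pair the arrays, and the blocked fit is given where it changes the call of a gene named or moves a list's count by over 1.5 times.

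Genes were named by rule: up to 15 of the largest called changes in each direction without overlap, up to 6 called members of each list by size, a set of key muscle genes, and 8 in each direction for the difference between days. Mypn, Timp1, Smad3, Ebp, Scd2, Mmp2, Melk, Cenpa, Tnnt3, Hmgcs1, Tagln, Calcr, Adipoq, Fabp4, Cdk6, Rrp12, Wdr12, Dmp1, Map2, Cd14, Cd34, Spry1, Hey1, Pdgfrb, Egfr, Fgfr2, Fgfr3, Igf1, Cnn1, Cnn2, Smtn, Zyx, Acta2 and Myh11 were named outside the rule, after their values were seen. The comparison, the members and the 41 gene lists were chosen with earlier results of these data known. List members without a probe set of 1 symbol were not analysed here. Of the genes tested, 14453 had a promoter window in the RefSeq table.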

Additional observations from a re-analysis of the deposited data

Results flagged for a closer look

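For 51 of the genes named here the change over the second day (48 h minus 24 h) differed from that over the first (24 h minus 0 h) by limma's test of the difference itself, with Benjamini-Hochberg adjustment over all genes. Over all 18194 genes 348 (1.91%) were called in this test. The 51 include the 8 genes in each direction that were named by this same test. Many others were named for their change over the second day, which enters the difference, so the count of 51 is no rate. Both days use the 24 h arrays. The values below are second day minus first day on the log2 scale, and no explanation was tested.

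Among muscle genes the difference was negative for Casq2 (-4.66), Myl4 (-4.48), Itgb1bp2 (-4.22), Ckm (-4.17), Srpk3 (-4.07), Unc45b (-4.01), Myoz2 (-3.59), Ankrd2 (-3.00), Pgam2 (-2.24), Cav3 (-1.89) and Hspb3 (-1.43). It was positive for Myl2 (2.30) and Tcap (1.78).

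Among cell cycle genes the difference was positive for Ect2 (2.42), Cenpa (2.10), Melk (1.78), Mad2l1 (1.57), E2f7 (1.56) and Rrm2 (1.03), and negative for the cyclin-dependent kinase inhibitor gene Cdkn1c (-4.14).

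Of matrix and protease genes Cthrc1 (3.60), Smoc2 (3.11), Fmod (2.90), Tnc (2.01), Ctsw (1.76) and Timp1 (1.13) had a more positive second day, and Htra3 (-2.90), Adamts5 (-2.60), Dcn (-2.52), Nid2 (-1.35) and Ctsb (-0.69) a more negative one.

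Of signalling genes and transcription factors Egr2 (2.03), Hbegf (2.02), Bhlhe40 (1.31), Ier5 (0.98) and Pdgfa (0.82) had a more positive second day. The difference was negative for Plagl1 (-4.09), Gfra1 (-2.83), Igfbp4 (-1.98), Vcam1 (-1.50), Txnip (-1.30), Fgfr4 (-1.28), Irs1 (-1.24) and Pax7 (-0.96).

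Insig1 (1.69) and Scd2 (0.79) of lipid synthesis, Aldh1l2 of folate metabolism (2.86), Cd24a (4.08), Ranbp3l (2.28) and Padi3 (1.64) had a more positive second day, and Selenop (-1.99) a more negative one. The values of Plagl1 and Srpk3 were -0.15 and -0.31 without shared-probe sets.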

How the results depend on the processing

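Against 708 genes called between 24 h and 48 h (342 risen, 366 fallen, 177 at least 2-fold), the 6 arrays alone gave 428 calls with 198 fallen, the mean of probe sets 113 at least 2-fold, and the passage number as a block 1475 calls, 746 risen and 729 fallen. With 1 array left out the count ranged from 282 to 887, risen genes from 130 to 400, fallen genes from 152 to 487 and 2-fold calls from 106 to 260. The difference between days, called for 348 genes, was called for 919 with the block and for 86 to 415 with 1 array left out. With 1 array left out the remaining arrays are assumed to vary like the other groups. These fits had no passage block, so the passages were uneven between the 2 times. How far that bears on the lost calls was not tested. Among the named genes that were called, 2 values changed sign. They were those of Asph on the mean of its probe sets (0.068, adjusted p = 0.907 by limma) and of Masp1 without shared-probe sets (0.47, adjusted p = 0.357). The cause was not tested. Some named genes that were not called also changed sign between fits, such as Myog (-0.15 to 0.12) and Igf2 (-0.24 to 0.59). For the 120 named genes that were called, 1743 of 2034 values under alternatives kept direction and call, 289 kept direction only and 2 reversed. Leaving out an array accounted for 207 of the losses, 55 of them from leaving out 48 h replicate 1, and the 6 arrays alone for 37. The block ended none of the 708 calls. Cyclic loess lowered the share of risen genes from 48.3% to 42.9%, and the median of all genes moved by less than 0.1 under each scaling. The number of arrays limits the precision.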
